A study of Mus musculus with 2 samples.

Results

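The genes examined were 9 miRNA genes known for expression in neurons: Mir128-1, Mir128-2, Mir138-1, Mir138-2, Mir129-1, Mir129-2, Mir218-1, Mir218-2 and Mir153. They were taken by symbol from the GENCODE M21 annotation and are 9 of the 2202 miRNA genes in the deposited tables. The first 8 are 4 pairs of copies, where each pair makes the same leading mature miRNA from 2 places in the genome, and Mir153 stands alone. The data are small RNA libraries labelled as cortex of the left cerebral hemisphere of B6CASTF1/J males at 4 days of age. Library 2, as named below, holds many reads of muscle miRNAs, so whether it is the labelled tissue is not settled here, and every fold compares the libraries as labelled. B6CASTF1/J is the first-generation cross of the strains C57BL/6J and CAST/EiJ. No treatment is named in the labels. All samples belong to 1 group of 2 libraries, called library 1 and library 2 here after the biological replicate number on their labels. The males carry different numbers but the same donor identifier, so the difference between the libraries may or may not be one between animals.

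A miRNA gene is transcribed as part of a longer RNA, often an intron of a host gene, from which a hairpin is released. The hairpin is cut into a 5p and a 3p arm, and a mature arm of about the length of a small RNA read guides Argonaute proteins to messenger RNAs that match its seed (bases 2 to 8). miR-128 is abundant in forebrain neurons and restrains their excitability. miR-138 limits the size of dendritic spines, miR-129 acts in synaptic plasticity, miR-218 is known from motor neurons, and miR-153 acts on proteins of vesicle release. These are roles known from neurons, for miR-218 from motor neurons. Whether the level of any of them follows the amount of neuronal RNA was not tested here.

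The mature arm for which each pair is named is identical between its copies, and the copies are told apart by other bases. The 5 arms below, from RefSeq (GRCm38.p6), are the ones the genes are known for, with the seed in capitals. No 2 of these 5 share a seed.
miR-128-3p: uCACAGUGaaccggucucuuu
miR-138-5p: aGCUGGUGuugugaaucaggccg
miR-129-5p: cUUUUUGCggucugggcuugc
miR-218-5p: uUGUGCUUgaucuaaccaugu
miR-153-3p: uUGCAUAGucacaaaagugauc

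The RefSeq table held hairpins for all 9 genes and 13 distinct mature arms of theirs. The first 4 of the arms above were each found in 2 of the 1005 hairpins of the table, namely those of the pair, and miR-153-3p in 1. The opposite arms differ between copies and are shown because only they, or bases next to the shared arm, can assign a read to a copy. The seeds in capitals are those of each arm.
miR-128-1-5p: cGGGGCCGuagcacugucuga
miR-128-2-5p: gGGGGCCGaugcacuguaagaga
miR-138-1-3p: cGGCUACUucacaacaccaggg
miR-138-2-3p: gCUAUUUCacgacaccagggu
miR-129-2-3p: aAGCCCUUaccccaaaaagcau
miR-218-1-3p: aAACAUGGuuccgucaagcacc
miR-218-2-3p: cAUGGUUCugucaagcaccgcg

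The 5p arms of the miR-128 copies carry the same seed but otherwise differ at 5 bases or more in any ungapped placement on the other hairpin. The 3p arms of miR-138-1 and miR-218-1 differ from the other copy's hairpin at 2 bases at the fewest. The 3p arm of Mir129-2 differs from the matching stretch of the Mir129-1 hairpin by a single substitution, C20U, counted from 1 at the 5′ end of the arm with the base of miR-129-2-3p first. The table lists no 3p arm for Mir129-1.

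Reads of the shared arms become assignable only once they run past the shared stretch. The longest identical run was 23 nt for the miR-128 hairpins, 24 nt for miR-138, 26 nt for miR-129 and 22 nt for miR-218. Counted from 1 at the 5′ end of the shared arm, with the base of the copy numbered 1 first, the hairpins next differ at U22C for miR-128-3p, U24A for miR-138-5p, U25A for miR-129-5p and C23G for miR-218-5p. The miR-128 and miR-129 hairpins are printed to show this, with the mature arms in capitals. Mir128-1 lies at chr1:128202361-128202430 (+) and Mir128-2 at chr9:112118636-112118711 (-), while Mir129-1 lies at chr6:29022619-29022691 (+) and Mir129-2 at chr2:94241364-94241453 (-), all on mm10.
Mir128-1: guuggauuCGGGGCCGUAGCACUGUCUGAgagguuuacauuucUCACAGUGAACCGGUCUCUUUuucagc
Mir128-2: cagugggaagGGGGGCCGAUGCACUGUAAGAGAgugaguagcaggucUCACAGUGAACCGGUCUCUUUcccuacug
Mir129-1: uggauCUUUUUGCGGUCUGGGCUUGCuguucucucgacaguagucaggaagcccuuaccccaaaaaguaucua
Mir129-2: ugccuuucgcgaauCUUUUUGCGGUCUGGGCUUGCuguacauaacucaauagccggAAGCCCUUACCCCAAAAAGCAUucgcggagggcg

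Of the reads, 46.1% in library 1 and 39.8% in library 2 matched more than 1 site and are listed without a gene. A read that covers only a shared arm has such sites in both hairpins. If set aside for that reason, it is in no count below, which would then be counts of reads that reached a base particular to 1 copy, and are not the whole yield of a copy. A miR-128-3p read of either copy that gained a single U after cutting has the letters of a Mir128-1 read up to the base marked U22C, and such reads could count for Mir128-1. How often that occurred, and how many reads of each shared arm were set aside, was not tested.

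**Figure D1:**
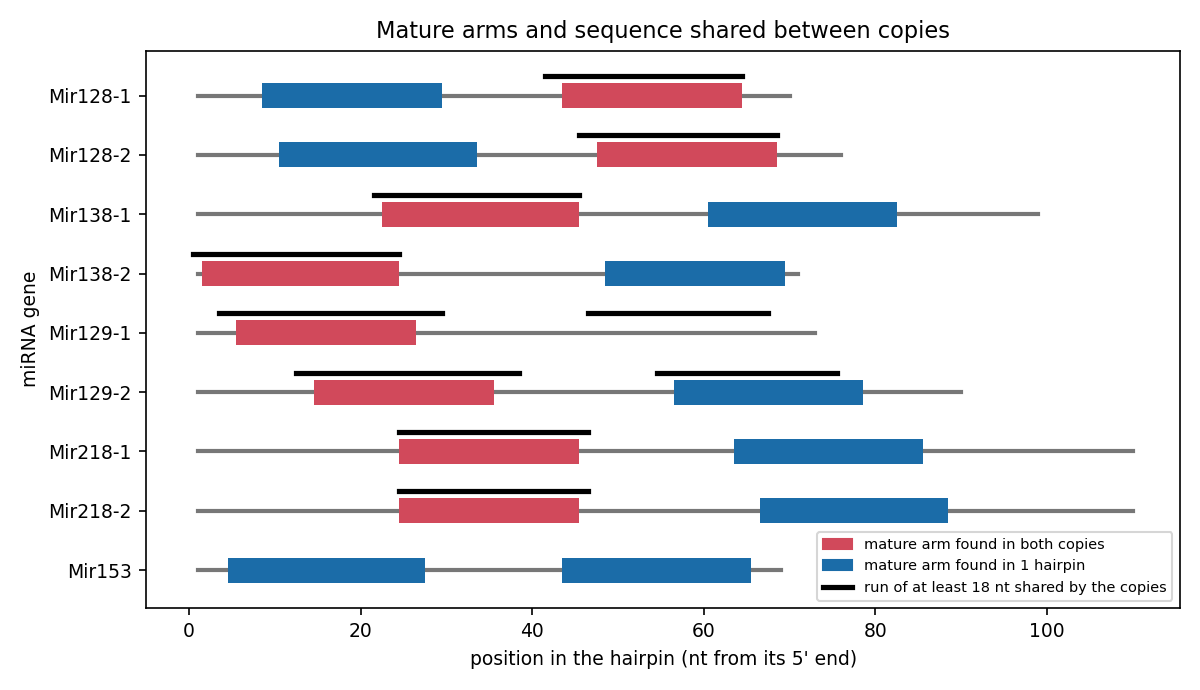
Each hairpin is drawn to scale from its 5′ end (x axis, nt), with 1 gene per line. Boxes are mature arms, coloured by whether the arm is found in both copies or in 1 hairpin, and black bars are identical runs of at least 18 nt between copies. Each pair has 1 such run over its shared arm, of 22 to 26 nt, and the miR-129 pair has another of 21 nt on the 3p side.

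The annotation places 6 of the 9 genes in introns, so not every one of them sits in a host intron. Mir128-1 lies in an intron of R3hdm1 and Mir128-2 in an intron of Arpp21, which encodes an RNA-binding phosphoprotein of forebrain neurons. Mir218-1 (chr5:48223942-48224051, +) and Mir218-2 (chr11:35616816-35616925, +) lie in introns of Slit2 and Slit3, which encode secreted guidance cues for axons. Slit3 has 1 overlapping coding transcript, where the hairpin is in intron 14 of 35, and in 1 of 4 coding Slit2 transcripts the position is likewise intron 14 of 35. Mir153 (chr12:117250817-117250885, +) lies in intron 19 of 22 of Ptprn2, which encodes a protein of dense-core vesicles, and Mir129-2 in an intron of the noncoding RNA Mir670hg. Mir129-1, Mir138-2 (chr8:94324311-94324381, +) and Mir138-1 (chr9:122682876-122682974, +) overlap exons of the noncoding genes Gm3294, C78859 and Gm47135, the last a transcribed pseudogene. Host transcripts are not measured in these libraries, so the levels of miRNA and host could not be set side by side.

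The libraries held 2999032 and 3577964 reads on the own strand of miRNA genes, and levels are given as CPM, counts scaled to these totals. A count of 0 allows up to 1.00 and 0.838 CPM. Intervals are exact Clopper-Pearson 95% intervals, which cover counting error only and can understate it, since amplified reads are not independent molecules. With a single library on each side of the comparison there is no replicate check and no p-value is given.

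The libraries stand apart in other tissues' miRNAs, against the common label of cortex. The 10 listed miRNA genes of skeletal and heart muscle held 0.00737% of counts in library 1 and 15.7% in the other, with 6 and 1 of the 10 at 0. Mir206, of skeletal muscle, alone had 212 and 559242 counts. The 5 genes of the Hox clusters held 0.0228% and 1.91%, led by Mir196b with 40 and 42961 counts. Of 4 blood miRNA genes listed, the 2 found by symbol, Mir451a and Mir144, held 0.00167% and 0.00682%. This share leaves out Mir486, with 86 and 305 counts, because the list names it only as Mir486a and Mir486b. The part of these differences in the results below was not tested.

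All 9 genes had a higher CPM in library 1. Together they took 2.55% of its counts (interval 2.53 to 2.56) and 0.118% (0.115 to 0.122) of the other library's. The miR-128 copies made up 91.5% of the 9 genes' counts in the former and 94.6% in the latter. Of the 9, 8 were at least 4-fold lower in library 2 (CPM + 1), where 37.4% of the 463 genes with at least 10 counts summed were, and 0 were at least 4-fold higher, beside 13.8% of those genes. With TMM scaling, which centres the bulk of genes, 7 of the 9 were at least 4-fold lower and 0 higher, against 19.4% and 23.8% of genes. All 9 had at least 10 counts summed, and library 1 alone supplied that many for each. Mir129-1, Mir153 and Mir218-1, with 1, 2 and 6 counts in library 2, passed this filter only through library 1, in which they were high. In bulk tissue, fewer cells of a type and less miRNA per cell cannot be told apart. Neither can be told apart here from a library 2 of another tissue than the labelled one.

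TMM moved the ratios of all 9 genes upward, by less for genes with few counts because of the prior of 1 CPM, so each gene is also placed among the others by its ratio with total counts. The median log2 ratio of the 463 genes, library 2 over library 1, was -1.35 with total counts and -0.26 with TMM, and the median of the 9 genes was -4.79 and -3.43. Relative to the median of the 463 the 9 genes lay between -4.36 (Mir129-1) and -0.03 (Mir218-1). Counted from the lowest ratio, Mir129-1 was at place 20, Mir153 at 25, Mir129-2 at 26, Mir138-1 at 32, Mir138-2 at 40, Mir128-1 at 46, Mir128-2 at 58, Mir218-2 at 99 and Mir218-1 at 228 of 463. Thus Mir218-1 sat near the middle and the other 8 nearer to the lowest ratio, with Mir218-2 the last of these.

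**Figure D2:**
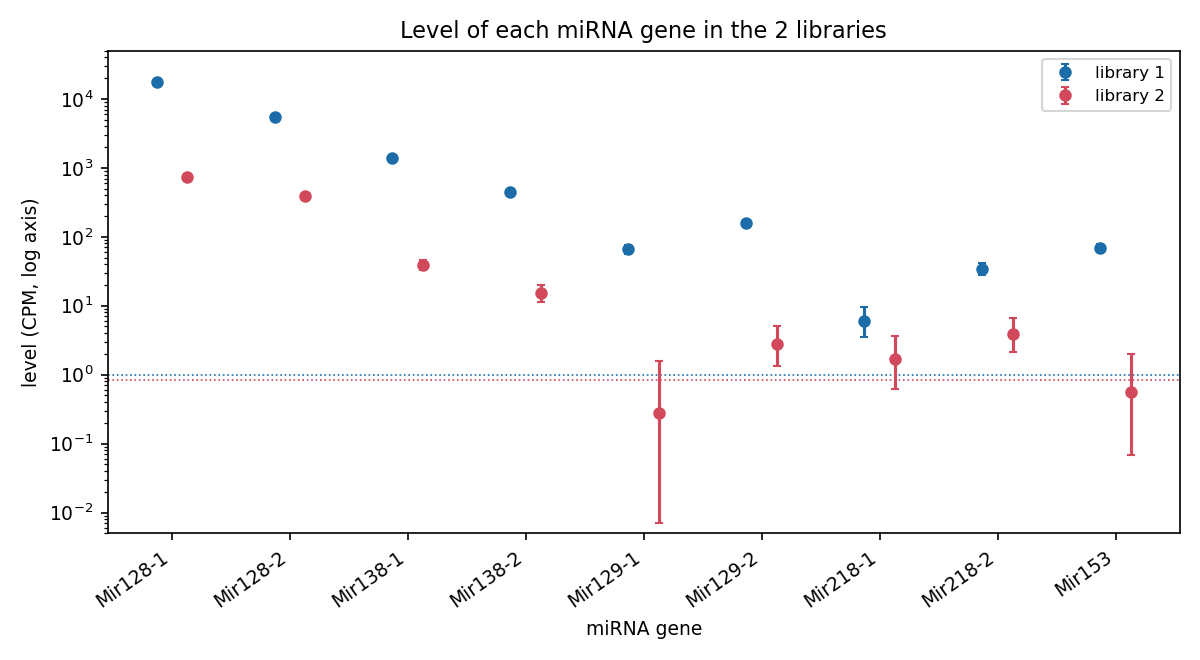
Level of each gene (y axis, CPM, log axis) in library 1 (blue) and library 2 (red), with exact 95% intervals of counting error. Dotted lines mark the CPM that a count of 0 allows, 1.00 and 0.838. The blue point lies above the red one for all 9 genes, and Mir129-1 and Mir153 fall under the red line.

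miR-128 was the most abundant of the 4 families by these counts. Mir128-1 had 53592 counts (17870 CPM) in library 1 and 2623 (733 CPM) in library 2. It was the gene at place 11 of 463 by level in the former and at place 90 in the latter, and its CPM was 24.4-fold lower there (interval 23.4 to 25.4). Mir128-2, the copy in Arpp21, had 16271 counts (5425 CPM) and 1379 (385 CPM), a 14.1-fold lower CPM (13.3 to 14.9). The intervals of the 2 folds do not overlap, so the CPM assigned to Mir128-1 was lower by more than counting error from that assigned to Mir128-2. With 1 library on each side, whether the copies themselves differ in this way was not tested. Summed over the pair, the CPM was 20.8-fold lower (20.2 to 21.5).

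Mir128-1 led its pair in both libraries, but by less in library 2. It supplied 76.7% of the pair's counts (76.4 to 77.0) in library 1 and 65.5% (64.0 to 67.0) in the other. The ratio of Mir128-1 to Mir128-2 counts was 3.29 and 1.90. The odds of a read falling on Mir128-1 were 0.578 times as high in library 2 (exact 95% interval 0.540 to 0.618). A share within a library does not depend on scaling, so this difference is the same under every normalization used here.

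The miR-138 copies were the next most abundant. Mir138-1 had 4183 counts (1395 CPM) and 141 (39.4 CPM), and was 35.4-fold lower in library 2 (interval 29.9 to 42.2). Mir138-2 had 1334 counts (445 CPM) and 54 (15.1 CPM), and was 29.5-fold lower (22.5 to 39.4). The copies' folds overlap within counting error. Mir138-1 supplied 75.8% (74.7 to 76.9) and 72.3% (65.5 to 78.5) of the pair's counts. The odds ratio between the libraries was 0.833, with an interval of 0.600 to 1.17 that spans 1, so a change in balance of this size was not detectable at a depth of 195 counts.

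In the miR-129 pair the copy numbered 2 led. Mir129-2 had 472 counts (157 CPM) in library 1 and 10 (2.79 CPM) in the other, where its CPM was 56.3-fold lower (30.4 to 118). Mir129-1 had 198 counts (66.0 CPM) and 1 (0.279 CPM), a 236-fold lower CPM whose interval runs from 41.9 to 9377 because it rests on that 1 read. Mir129-1 supplied 29.6% (26.1 to 33.2) of the pair's counts and then 9.09% (0.230 to 41.3). The odds ratio was 0.239 (0.00547 to 1.70), and with 11 counts for the pair in library 2 no change in balance could be read.

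Mir129-2 shares its site with another annotated miRNA gene on the opposite strand, Mir129b (chr2:94241378-94241442, +). No own-strand read fell on Mir129b in either library. When reads are counted without regard to strand, those that cover both genes are ambiguous, and Mir129-2 kept 4 of 472 and 0 of 10 counts. Its value therefore depends on strand being kept in the library and in the counting, while the unstranded and own-strand counts of the other 8 genes were equal.

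Mir670hg, the noncoding host of Mir129-2, also holds Mir670 in an exon, the only other miRNA gene with counts on the same strand of a host of the 9 genes. Mir670 had 106 and 0 counts, so that with the floor of 3 counts in library 2 its CPM was at least 42.2-fold lower there. The 2 miRNA genes of this host thus both had a higher CPM in library 1. Mir670 was named because of this shared host, after its values were seen.

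The miR-218 copies in the Slit genes were the least abundant in library 1 and differed least between the libraries. Mir218-2, in Slit3, had 102 counts (34.0 CPM) and 14 (3.91 CPM), an 8.69-fold lower CPM (4.95 to 16.5). Mir218-1, in Slit2, had 18 counts (6.0 CPM) and 6 (1.68 CPM), a 3.58-fold lower CPM (1.36 to 11.0). With TMM its log2 ratio was -0.33, against -1.39 with total counts, and it is the only 1 of the 9 short of 4-fold under total counts. With TMM, Mir218-2 also fell short, at -1.57. Mir218-2 held the larger part of the pair's counts in both libraries, since Mir218-1 supplied 15.0% (9.14 to 22.7) and 30.0% (11.9 to 54.3). The latter interval includes an equal split, and the odds ratio of 2.41 (0.669 to 7.84) spans 1.

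Mir153, the gene without a copy in this set, had 205 counts (68.4 CPM) in library 1 and 2 (0.559 CPM) in the other. Its CPM was 122-fold lower there, with an interval of 33.4 to 1017 that reflects the 2 reads. Neither of its arms was found in another hairpin of the table. In library 1 its level could not be told from that of Mir129-1, with intervals of 59.3 to 78.4 and 57.1 to 75.9 CPM.

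The order of levels was the same for the first 4 genes in both libraries: Mir128-1, Mir128-2, Mir138-1 and Mir138-2, with intervals that do not overlap between neighbours. In library 1 Mir129-2, Mir153, Mir129-1, Mir218-2 and Mir218-1 followed, and only Mir153 and Mir129-1 overlapped. In library 2 the order was Mir218-2, Mir129-2, Mir218-1, Mir153 and Mir129-1, and every neighbouring pair of these 5 overlapped. Per 100 nt of hairpin, which spans 69 to 110 nt, the order in each library was unchanged. The leading copy then exceeded the other 3.58-fold for miR-128, 2.25-fold for miR-138, 1.93-fold for miR-129 and 5.67-fold for miR-218 in library 1. A read covers an arm and not a whole hairpin, and the 4 families differ in how much of a read must lie outside the shared run, so levels between families are uneven measures.

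**Figure D3:**
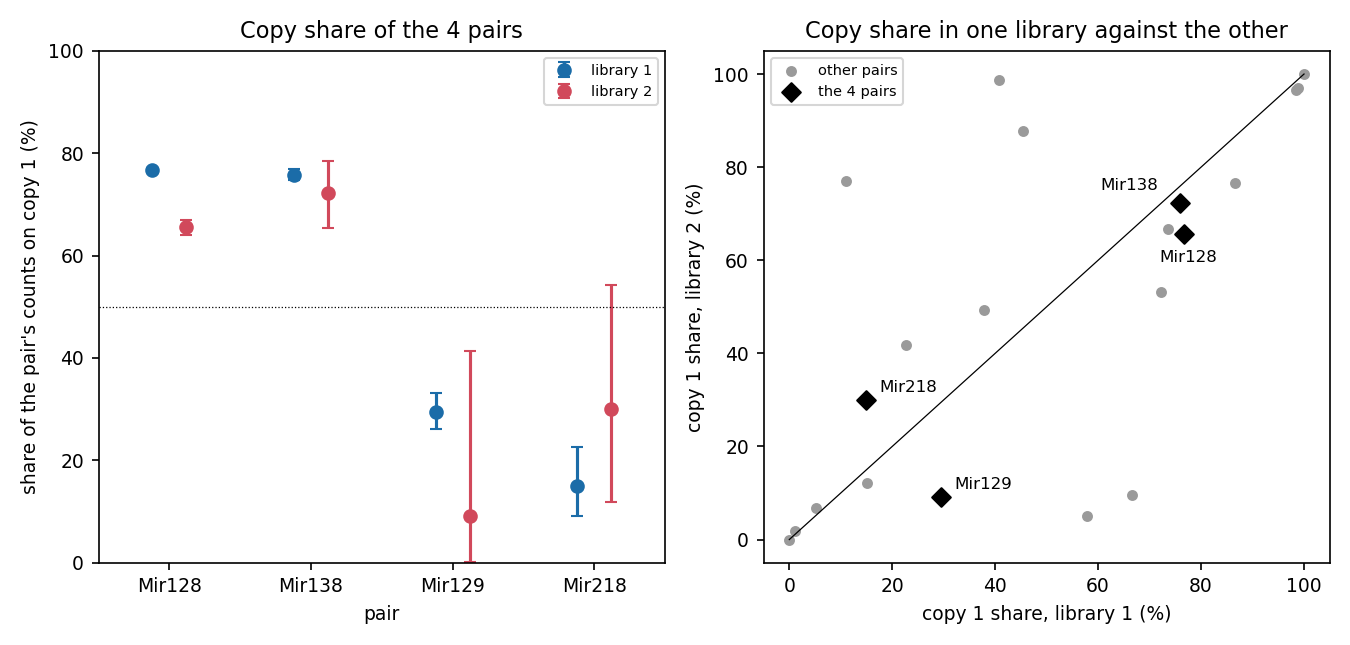
Left, share of each pair's own-strand counts on the copy numbered 1 (y axis, percent) in library 1 (blue) and library 2 (red), with exact 95% intervals and an equal split dotted. Right, that share in library 1 (x axis) against library 2 (y axis) for the 4 pairs (diamonds) and 17 other pairs (grey). The 4 diamonds stay on their side of an equal split in both libraries, and the intervals do not overlap for miR-128.

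The leading copy of each of the 4 pairs was the same in both libraries. The annotation holds 17 other pairs of copies numbered 1 and 2 with at least 10 counts in each library, and the leading copy was the same in 12 of them. In 2 of the 17 a copy had no count in either library, which fixes the share, and without these the leading copy was the same in 10 of 15. The share of the copy numbered 1 moved between the libraries by 11.2 points for miR-128, 3.51 for miR-138, 20.5 for miR-129 and 15.0 for miR-218. In the 15 pairs with both copies seen the median move was 11.6 points (9.89 over all 17) and the largest 65.9. The interval of the odds ratio excluded 1 for 1 of the 4 pairs, miR-128, and for 14 of the 15 others with both copies seen (93.3%, or 82.4% of all 17). The moves of these 4 pairs thus lay within the range of the others, and 2 of the 4 rested on at most 20 counts in library 2.

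Other neuronal miRNAs moved the same way with 1 exception. Of 16 other genes listed as neuronal, 12 had at least 10 counts summed, several of which also have copies, and 11 of these 12 were at least 4-fold lower and 0 higher in library 2 (10 and 0 with TMM), beside the 37.4% and 13.8% of all genes. The median log2 ratio of these 12 was -5.99 (-4.90 with TMM). Mir9-1, Mir9-3, Mir7-2, Mir7b, Mir135a-1 and Mir135a-2 passed the count filter only through library 1, in which they were high. The list was chosen with earlier results of these data known, so its counts are description and not a test. The list took 2.10% and 0.238% of counts. Mir137 had 40242 and 99 counts, Mir132, an activity-regulated miRNA, 11179 and 391, and Mir9-3, of progenitors and neurons, 837 and 1. Mir7-1 (300 and 75 counts) was 4-fold lower with total counts only. The exception was Mir134 of the imprinted Dlk1-Dio3 region, with 5061 and 7923 counts, a log2 ratio of 0.39. Too few reads for a comparison fell on Mir9-2, with 7 and 0 counts. The same held for the 3 Mir124a copies, with 8, 3 and 1 in library 1 and 0 in library 2. Reads at several sites are listed without a gene, so low counts of genes with copies need not mean a low level of the miRNA. How many reads of these miRNAs were set aside was not tested.

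The 3 genes with at least 1000 counts summed that lay nearest to the median log2 ratio of those of the 9 with at least 100 counts (-4.95) were Mir330 at -5.02, Mir331 at -5.04 and Mir132 at -5.08, of 182 candidates. This likeness rests on 2 libraries, in which many genes can match.

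**Figure D4:**
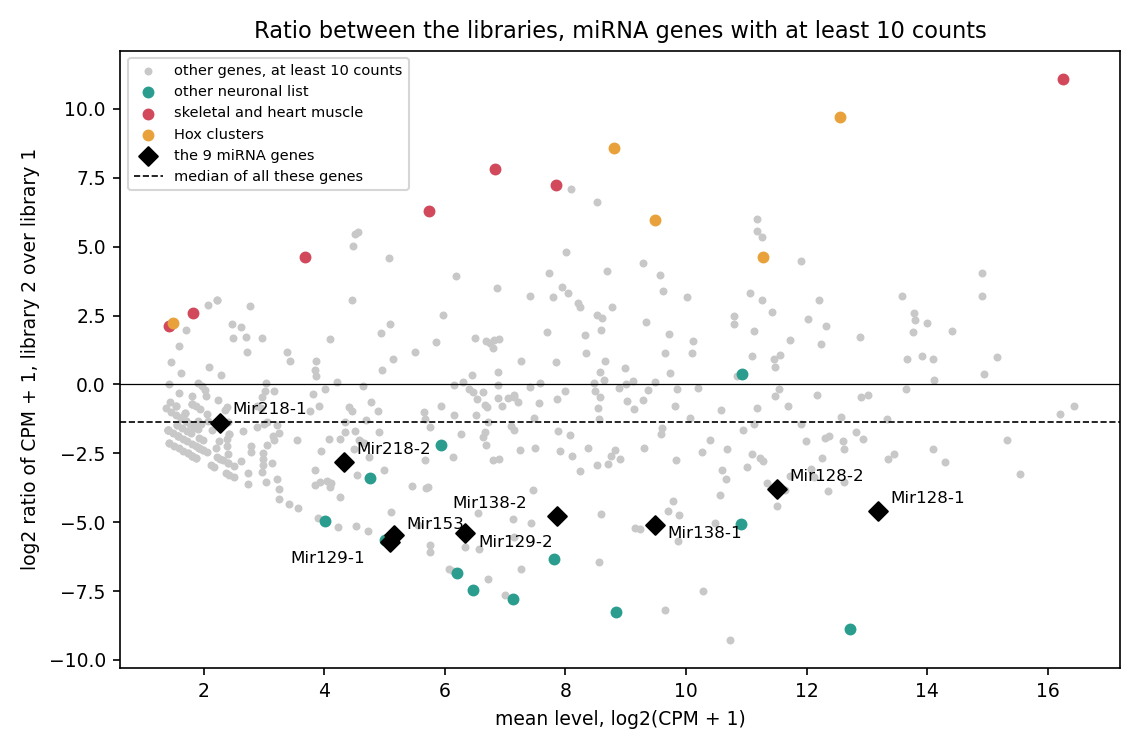
Log2 ratio of CPM + 1 between the libraries (y axis, library 2 over library 1, total counts) against mean level (x axis, log2 of CPM + 1) for 463 miRNA genes. The 9 genes (black diamonds) lie at or below the dashed median of -1.35, with the other neuronal genes (green) save Mir134, while muscle (red) and Hox (orange) genes lie above 0.

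The ratios of the 9 genes overlapped between coding and noncoding hosts only through Mir153, with 2 counts in library 2. The 5 in introns of coding genes ranged from -5.48 (Mir153) to -1.39 (Mir218-1), and the 4 in noncoding genes from -5.71 (Mir129-1) to -4.79 (Mir138-2). Mir128-1 (-4.61), Mir128-2 (-3.81), Mir218-2 (-2.83) and Mir218-1 thus lay above all those in noncoding genes. Whether the kind of host bears on the ratio was not tested. Among 171 other miRNA genes inside introns of coding genes on the same strand, the median log2 ratio was -1.64, beside -1.35 for all 463 genes. Of these 171, 43.3% were at least 4-fold lower and 8.77% at least 4-fold higher in library 2, beside 37.4% and 13.8% of all genes. With TMM the shares of the 171 were 21.6% and 16.4%, beside 19.4% and 23.8% of all genes.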

How the data were processed

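The deposited tables give raw counts of reads for each miRNA gene, 1 table per library, not pooled. Text deposited beside them names assembly mm10 and annotation GENCODE M21. The read aligner is not given in the sources used here, nor is the counter. The count columns are reads on either, the own and the opposite strand. The own-strand column was used. Entries without a gene stayed out of library sizes: on the own strand, unplaced reads were 18.4% and 6.11%, reads at several sites 46.1% and 39.8%, and reads outside miRNA genes 5.55% and 1.47% of 10029659 and 6800067 reads. RNA under 30 nt was selected, per the labels.

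All 2202 identifiers matched GENCODE M21 for symbols, coordinates and hosts. Ratios are library 2 over library 1. Log2 ratios carry a prior of 1 CPM, which pulls low counts towards 0; no prior was used for folds or intervals. The call rule was a 4-fold ratio among genes with at least 10 counts summed. A quasi-likelihood test needs replicates on each side, so none was run. Copy shares were compared by the conditional odds ratio with its exact interval. Alternatives were TMM (edgeR 4.0.16, factors 1.63 and 0.615), DESeq2 1.42.0 size factors (1.57 and 0.638), unstranded counts, a prior of 0.1 CPM, 2-fold and 8-fold rules, filters of 1 and 100 counts, and each library alone. The computation of ratios and intervals was tested on simulated independent counts. That cannot show how well the intervals hold for amplified reads.

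The genes and lists (neuronal, muscle, Hox, blood) were chosen with earlier results of these data known. Named are the 9 genes, any gene of the neuronal list, the largest of the muscle and Hox lists, and the 3 genes of at least 1000 counts nearest to the members' median. Mir451a, Mir144, Mir486, Mir670 and Mir129b were named after their values were seen. Software was R 4.3.3, Python 3.11.15, numpy 2.4.6, pandas 2.3.3, scipy 1.17.1 and matplotlib 3.10.9.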

Additional observations from a re-analysis of the deposited data

Results flagged for a closer look

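The column of reads opposite to a gene was left out of the measurement. At Mir129b its counts were 468 (library 1) and 10 (library 2), more than the limit of 3 for a count of 0. Mir129b lies opposite to Mir129-2 and wholly within its span. Reads opposite to Mir129b are therefore on the own strand of Mir129-2, and are no signal beyond its own-strand counts of 472 and 10. At the 9 genes themselves the opposite-strand column held 0 counts in both libraries.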

How the results depend on the processing

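The number of the 9 genes at least 4-fold lower, 8 with total counts, was 7 with TMM and with DESeq2 size factors. It was 8 with a prior of 0.1 CPM (44.3% of all genes), with a filter of 1 count (23.4%) and with totals that leave out the muscle list (34.6%), a setting added after seeing the data. Mir129-2 dropped out of the unstranded counts and Mir218-1 under a filter of 100 counts, which left 7 of 8 (37.2%) and 8 of 8 (36.6%). A 2-fold rule gave 9 of 9 (55.1%) and an 8-fold rule 7 of 9 (19.4%). None of the 9 was higher by the rule used under any of these settings. The share of all genes that was higher ran from 8.44% (filter of 1 count) to 24.2% (DESeq2 size factors). Beside the lowest of these shares, 0 of 9 is near what all genes show. Among all genes, 173 were at least 4-fold lower and 64 higher with total counts, 90 and 110 with TMM, and 82 and 112 with DESeq2 size factors. No log2 ratio of the 9 genes changed sign. They ran from -4.84 to -0.33 with TMM and from -4.74 to -0.22 with DESeq2 size factors. Unstranded counting moved the log2 ratio of Mir129-2 to -1.27 and the mean share of Mir129-1 in its pair from 19.3% to 99.0%, by removing reads that overlap Mir129b. With each library alone the share of the copy numbered 1 was 65.5% to 76.7% for miR-128, 72.3% to 75.8% for miR-138, 9.09% to 29.6% for miR-129 and 15.0% to 30.0% for miR-218. The median log2 ratio of other intronic genes was -0.55 with TMM and -1.32 at 100 counts. With at least 100 counts in each library, 10 other pairs remained and 9 had the same leading copy, and the count of 10 of 15 pairs with both copies seen was added after seeing the data. Depth limits Mir153 and both copies of miR-129 and miR-218, with 1 to 14 counts in library 2. No paired analysis was possible because the series has 1 group.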
